A study of Mus musculus with 4 samples.

Results

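The 1000 widest RNA polymerase II (Pol II) peaks of each of 4 chromatin immunoprecipitation libraries from mouse brain endothelial cells (ECs) were described here. The members were chosen by width alone: the peaks of a library on chromosomes 1 to 19 and X were ranked by the length that the peak caller gave, with ties ordered by chromosome and start, and the first 1000 were kept. This gave 4000 members of 387843 peaks in the 4 lists, with 1000 of 78391 peaks in old WT Cre replicate 1, 1000 of 39338 in its replicate 2, 1000 of 35175 in young EC-K4KO replicate 1 and 1000 of 234939 in its replicate 2. These libraries are called old 1, old 2, young 1 and young 2 hereafter, sets of 4 values are in that order, and the 2 groups are called old and young. Old WT Cre mice (20 to 23 mo) carried the endothelial Cre driver Cdh5-CreERT2 with intact Klf4. Young EC-K4KO mice (4 to 6 mo) carried the same driver with floxed Klf4 alleles, which encode a zinc-finger transcription factor. The study's methods give tamoxifen at 8 wk, C57BL/6J mice of both sexes, and 200000 flow-sorted ECs digested with micrococcal nuclease for each library. Age and genotype changed together, so the 2 cannot be told apart in these 4 libraries.

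Pol II transcribes protein-coding genes and many noncoding RNAs. On a typical active gene it gathers just downstream of the transcription start site (TSS). Long interspersed element 1 (L1) retrotransposons are also read by Pol II. A full-length mouse L1 starts with a promoter made of tandemly repeated GC-rich units called monomers, followed by 2 open reading frames, the second of which encodes a reverse transcriptase. L1 copies lie in great number between genes and in introns, and most are truncated at the 5′ end and lack the promoter. Other tandem repeats are classed by unit length as satellites, minisatellites and microsatellites.

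Most of the widest peaks lay in tandem repeats. The largest class was arrays of units of mostly 208 or 212 bp, most of them with the layout of a full-length L1 promoter. This class made up 32.4%, 49.3%, 41.7% and 55.1% of the widest peaks of old 1, old 2, young 1 and young 2, against 3.46%, 7.42%, 5.21% and 2.18% of the remaining peaks of the same libraries. Peaks with the summit within 1500 bp of a protein-coding TSS made up 5.90%, 10.2%, 6.90% and 26.4% of the widest peaks and 7.21%, 13.5%, 6.28% and 8.23% of the remaining peaks.

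The following 30-base runs are shown because they are carried by most members of the 3 commonest unit lengths, though other members hold them too. Each is the run held by the largest number of widest peaks of that unit length, with CpG dinucleotides in capitals. Coordinates are of mm10, and each run is given 5′ to 3′ on the strand named. The example of the first lies in an intron of Sntg1, and those of the others lie outside annotated genes.
Unit of 208 bp, chr1:8688309-8688338, plus strand: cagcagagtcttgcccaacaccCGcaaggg
Unit of 212 bp, chr1:4559767-4559796, plus strand: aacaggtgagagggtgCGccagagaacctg
Unit of 206 bp, chr1:47629012-47629041, minus strand: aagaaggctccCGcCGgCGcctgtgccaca
The first run was held by 732 of 736 widest peaks with units of 208 bp (99.5%), and it occurs 6262 times on chromosomes 1 to 19 and X of the assembly. Of all members 900 held it (22.5%), against 4271 of the remaining peaks (1.11%). The second was held by 586 of 587 widest peaks with units of 212 bp (99.8%) and by 617 members in all, and occurs 5376 times. The third was held by 106 of 111 widest peaks with units of 206 bp (95.5%) but by 184 members in all, so it does not mark that unit length alone, and it occurs 1184 times.

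The next runs stand for the other tandem repeats among the members. The first is 1 unit of the satellite at the start of chromosome 9, at the summit of the widest satellite peak, within the lincRNA gene Gm26870. The others are a minisatellite within the protein-coding gene Stam2, a short tandem array outside any annotated gene on chromosome 13, and a microsatellite outside any annotated gene on chromosome 15. All are on the plus strand, with CpG in capitals.
Satellite, chr9:3000507-3000740: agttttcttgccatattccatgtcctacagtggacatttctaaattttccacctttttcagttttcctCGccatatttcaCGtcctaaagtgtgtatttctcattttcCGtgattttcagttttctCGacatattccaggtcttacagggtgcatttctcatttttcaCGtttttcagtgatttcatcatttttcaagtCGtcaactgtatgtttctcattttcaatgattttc
Stam2 minisatellite, chr2:52697457-52697564: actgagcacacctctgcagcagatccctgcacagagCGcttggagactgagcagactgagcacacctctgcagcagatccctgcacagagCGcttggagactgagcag
Chromosome 13 array, chr13:74529605-74529676: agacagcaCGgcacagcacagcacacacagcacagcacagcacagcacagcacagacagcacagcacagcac
Chromosome 15 microsatellite, chr15:71737902-71737961: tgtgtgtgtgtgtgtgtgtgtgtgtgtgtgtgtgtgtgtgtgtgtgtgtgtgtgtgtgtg

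The widest peak was 5832, 3808, 2895 and 4207 bp long in old 1, old 2, young 1 and young 2, and the 10th widest was 1803, 1752, 1727 and 2053 bp. At the other end, the 1000th peak was 680, 602, 492 and 899 bp and the next was 680, 602, 491 and 898 bp, so that members just inside and just outside the list had the same width to within 1 bp. In old 1 the rank 1000 fell among 11 peaks of 680 bp, of which 7 were kept. The lower bound of the list was thus not the same width in each library. It was 3.91, 3.72, 3.08 and 5.95 times the fragment length of the library, which was 174, 162, 160 and 151 bp. The members held 4.32%, 8.29%, 8.44% and 2.06% of all bases under peaks. The median width of the members was 809.5 and 745.5 bp in the old libraries and 604.5 and 1049.5 bp in the young libraries, beside 220, 200, 192 and 185 bp in the remaining peaks. The group means were 777.5 ± 45.3 bp and 827.0 ± 315 bp (SD, n = 2 each), and the difference of -49.5 bp was smaller than the SD of the young group. Width chose the members, so these widths follow the lower bound of each list and are given with no test. Without young 2 the difference was 173 bp, in the other direction. The fragments counted by the peak caller ranged from 22705175 in young 2 to 65734178 in old 1, and the library with the fewest fragments held the most peaks and the widest members by median.

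**Figure D1:**
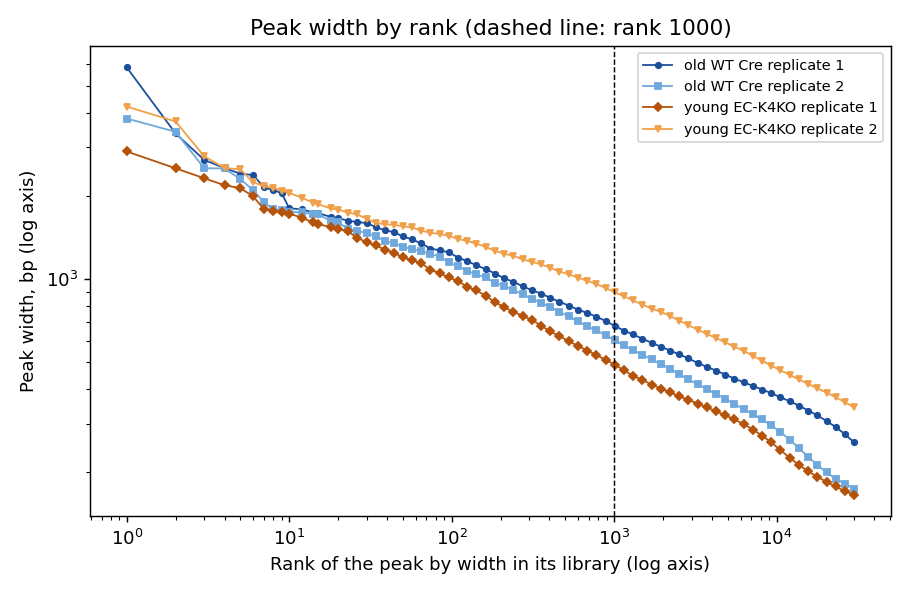
Peak width in bp against the rank of the peak by width in its library, both on log axes, with 1 line per library and a dashed line at rank 1000. At rank 1000 the libraries lie between 492 and 899 bp, and young 2 is the highest there.

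Tall peaks were among the widest more often than peaks in general, but most were not. Of the 500 peaks of each library with the largest pileup, the number of fragments over the summit, 106, 112, 158 and 50 were also among the widest, in the same order of libraries. These were 21.2%, 22.4%, 31.6% and 10% of the tallest peaks and 10.6%, 11.2%, 15.8% and 5% of the widest, where the widest made up 1.28%, 2.54%, 2.84% and 0.426% of each list. The median pileup of the widest peaks was 28, 17, 17 and 22 fragments, beside 21, 13, 14 and 13 in the remaining peaks. Pileup and width come from the same caller and the same reads, so these values are a description.

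The bases under the widest peaks were mostly soft-masked, that is, marked in the assembly as repeats. The masked share of a member averaged 77.0%, 81.2%, 71.7% and 65.2% in old 1, old 2, young 1 and young 2, against 41.8%, 44.7%, 40.7% and 30% in the remaining peaks. It was higher in 4 of 4 libraries, by 34.5 ± 2.42 percentage points (SD, n = 4 libraries). The two-sided exact sign-flip permutation test over libraries gave p = 0.13, the smallest that 4 libraries allow, and 0.148 after Benjamini-Hochberg adjustment over 13 measures. Against the next 1000 peaks by width the difference was 16.6 percentage points. To count copies, the 32-base words within 200 bp around the summit were looked up in the whole assembly. At the median member such a word was found 15.3, 254, 30.8 and 551 times, against 1 time in the remaining peaks of each library. The share of peaks whose words occurred at least 2 times was higher by 50.5 ± 1.86 percentage points, again in 4 of 4 libraries (exact p = 0.13, 0.148 adjusted).

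The members were also richer in G and C. Mean GC content was 56.0%, 59.7%, 57.9% and 63.6% in the widest peaks and 54.0%, 56.4%, 54.9% and 53.9% in the remaining peaks. The difference was 4.50 ± 3.51 percentage points, higher in 4 of 4 libraries (exact sign-flip test, p = 0.13, 0.148 adjusted). It was largest in young 2, and without that library the mean difference was 2.77. Against the next 1000 peaks by width it was 1.35. The observed over expected ratio of CpG, which is low in most of the mouse genome, had medians of 0.420, 0.590, 0.519 and 0.609 in the widest peaks against 0.285, 0.400, 0.245 and 0.232 in the remaining peaks.

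Each peak was then placed in 1 of 8 sequence classes, chosen after the values had been seen and so described with no test. A peak counted as tandem where at least 80% of bases in a stretch around the summit matched the sequence 1 unit away. Tandem units of 190 to 220 bp formed the first class with 1785 of the 4000 members (44.6%), units of 230 to 240 bp the second with 40 (1%), units of up to 60 bp the third with 694 (17.4%) and other units the fourth with 218 (5.45%). Other soft-masked peaks numbered 395 (9.88%), promoters outside these classes 441 (11%), other peaks present at least 2 times in the assembly 162 (4.05%) and other single-copy peaks 265 (6.63%). The last class was the main one of the remaining peaks, of which it made up 56.7%. Tandem repeats of any unit made up 69.8%, 78.8%, 61.3% and 63.8% of the widest peaks and 11.4%, 17.3%, 8.99% and 5.12% of the remaining peaks, a difference of 57.7 ± 3.88 percentage points (SD, n = 4), higher in 4 of 4 libraries.

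**Figure D2:**
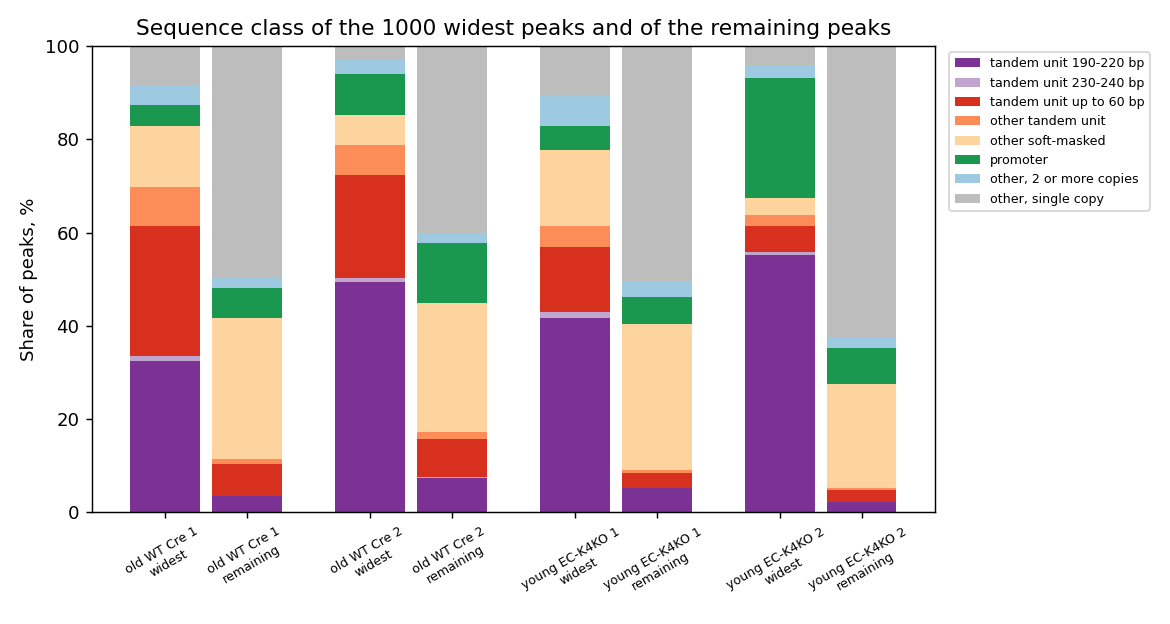
Share of peaks in each of 8 sequence classes, in %, for the 1000 widest peaks and the remaining peaks of each library. The class with units of 190 to 220 bp takes 32.4% to 55.1% of the widest peaks, and the single-copy class is the largest among the remaining peaks of all 4 libraries.

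The L1-like class had 1785 members. Its unit length fell on a few values: 736 members had a unit of exactly 208 bp, 587 of 212 bp, 111 of 206 bp and 96 of 201 bp. Units of 208 bp were found in 131, 211, 192 and 202 widest peaks of old 1, old 2, young 1 and young 2, and units of 212 bp in 99, 144, 119 and 225. The first 3 libraries thus held more arrays of the former kind, and young 2 more of the latter. The third kind, of 206 bp, was found in 22, 39, 15 and 35.

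Most of these arrays were alike in other ways that the ranking had not used, though the unit lengths differed from each other. The median GC content of the class was 63.6%, every base was soft-masked in 1340 of the 1785 members (75.1%), and the words at the median summit occurred 2138 times in the assembly. That median was 2536, 2047, 838 and 263 times for units of 208, 212, 206 and 201 bp. A stretch of at least 3000 bases without a stop codon lay nearby for 1340 members (75.1%). In the other classes of members this share ran from 0.907% for promoters to 15% for satellites. Narrower peaks of the L1-like class had such a stretch in 53.1%, with a median GC content of 63.5% and a median masked share of 100%. These traits were thus not particular to the wide arrays. By unit length, the stretch lay near 73.6% of members with 208 bp, 83.1% with 212 bp, 98.2% with 206 bp and 37.5% with 201 bp. Among the L1-like members, the most frequent length of that stretch was 3900 bases, found for 1090. It started downstream of the array in its own direction for 1330 of the 1340 (99.3%), at a median of 2031 bases from the summit, with quartiles of 1851 and 2256. This is the order of parts in a full-length L1, and the annotation used here gives no repeat names, so the class is called L1-like by its structure. Of the class, 1353 members (75.8%) lay outside protein-coding genes, 429 (24%) in introns, none in an exon and 3 within 1500 bp of a TSS.

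The L1-like arrays that were peaks were not all wide. Over all widths the lists held 2999, 3339, 2197 and 5656 peaks of this class in old 1, old 2, young 1 and young 2, or 3.83%, 8.49%, 6.25% and 2.41% of each list. Of these, 10.8%, 14.8%, 19% and 9.74% were among the widest 1000. In the widest lists the class was higher in share than in the remaining peaks by 40.1 ± 10.1 percentage points, in 4 of 4 libraries (SD, n = 4). Its share overlapped between the groups, with means of 40.9% ± 12 in old and 48.4% ± 9.48 in young (SD, n = 2).

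**Figure D3:**
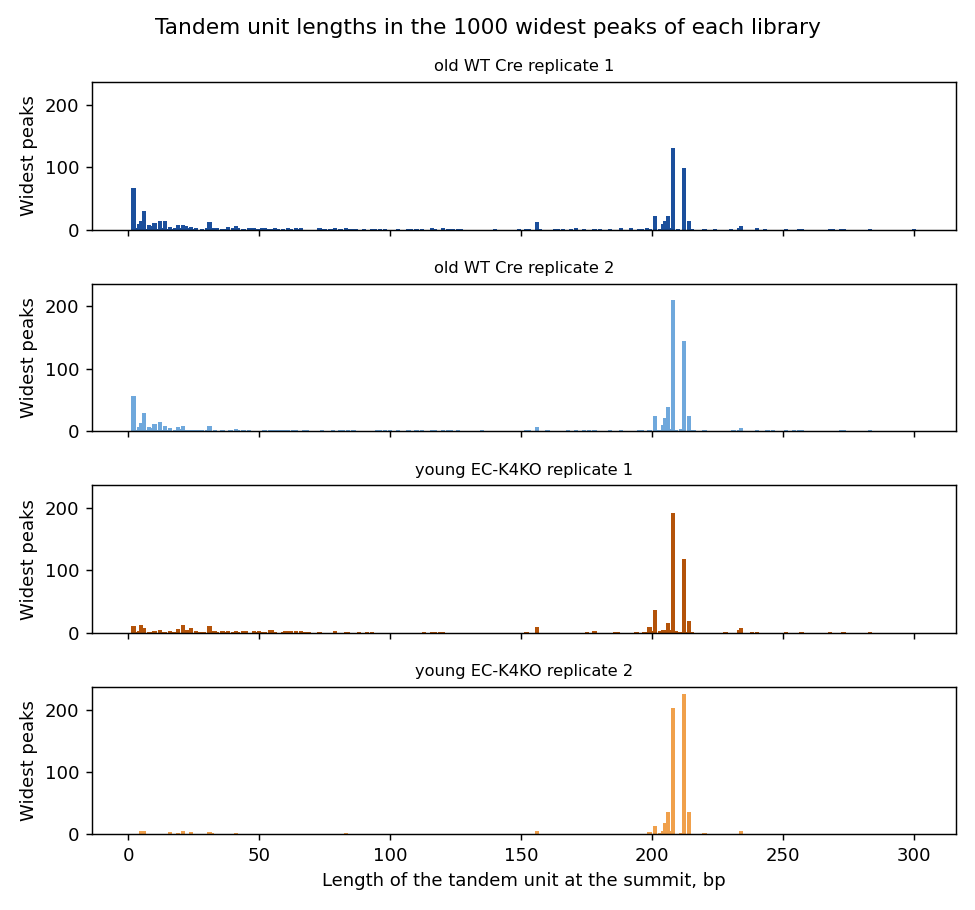
Number of widest peaks by the length in bp of the tandem unit at the summit, 1 panel per library on a shared axis. All 4 libraries have tall bars at 208 and 212 bp, and the bar at 2 bp holds 67 and 56 peaks in the old libraries and 11 and 1 in the young libraries.

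Short tandem repeats were the class with the largest difference between groups in mean share of the widest peaks. Members with units of up to 60 bp made up 27.9% and 22.2% of the widest peaks in old and 13.8% and 5.50% in young. The groups did not overlap, with means of 25.1% ± 4.03 and 9.65% ± 5.87 (SD, n = 2). As a share of each list, both old libraries were also above both young libraries over peaks of all widths. The class made up 7.08%, 8.58%, 3.39% and 2.52% there, so this was not particular to the widest peaks. In number the groups overlapped, with 5549, 3376, 1193 and 5929 short tandem peaks of all widths, the most in young 2. Among them were microsatellites with a unit of 2 bases, of which 67 and 56 were among the widest in old and 11 and 1 in young. The chromosome 15 microsatellite shown above, 10064 bp from the TSS of Fam135b, had peaks of 1270 and 1173 bp in the old libraries and no widest peak in the young libraries. At 899 bp or more, the lower bound of young 2, short tandem arrays made up 34%, 23%, 19.9% and 5.5% of 335, 257, 146 and 1000 peaks. In number these arrays were 114, 59, 29 and 55. This is a comparison at 1 width chosen after seeing the data.

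Since the lower bound of width differed between libraries, these microsatellites were also counted over peaks of any width. There were 1967 of them in old 1 and 1222 in old 2, but 116 in young 1 and 535 in young 2. As a share of each list this was 2.51% (exact Clopper-Pearson 95% interval 2.40 to 2.62), 3.11% (2.94 to 3.28), 0.330% (0.273 to 0.395) and 0.228% (0.209 to 0.248), where intervals cover counting error only. Both old libraries were thus higher than both young libraries, by 2.53 percentage points in the mean. Repeats of CA, read as TG on the other strand, were 88.4%, 94.3%, 84.5% and 63.6% of these peaks. Of those in old 1, 36.5% had the summit within a peak of old 2, 3.36% within a peak of young 1 and 5.44% within a peak of young 2. Of those in old 2, 63.7% had the summit within a peak of old 1, 5.40% within a peak of young 1 and 7.45% within a peak of young 2. The fewer microsatellite peaks of young 1 lay within peaks of old 1, old 2 and young 2 for 64.7%, 62.1% and 27.6%, and those of young 2 within peaks of old 1, old 2 and young 1 for 26.7%, 19.1% and 5.79%. With a match of 90% to the next unit in place of 80% the shares were 0.485%, 0.679%, 0.145% and 0.0370%, in the same order of groups.

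Satellite peaks were few but stood out in height. The 5 satellite loci that were wide in all 4 libraries, at the start of chromosome 9, had a median pileup of 69744 and 29213 fragments in old 1 and old 2 and 9934 and 2929 in young 1 and young 2. Per 1000000 fragments of the library this was 1061, 1064, 282 and 129, so that both old libraries were above both young libraries, by 5.17 times in the mean. Their widths overlapped, at 1261 to 1789, 1093 to 1779, 1150 to 1744 and 1073 to 1511 bp. At the 91 L1-like loci that were wide in all 4 libraries the median pileup per 1000000 fragments was 0.411, 0.692, 0.511 and 1.15, and there the groups overlapped. At the 23 short tandem loci wide in all 4 libraries it was 2.25, 2.66, 2.02 and 5.42, where the groups also overlapped and young 2 was the highest.

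The promoter share of the widest peaks had no common direction. It was 5.90% (95% interval 4.52 to 7.54) against 7.21% of the remaining peaks in old 1, 10.2% (8.39 to 12.2) against 13.5% in old 2, 6.90% (5.41 to 8.65) against 6.28% in young 1, and 26.4% (23.7 to 29.2) against 8.23% in young 2. The mean difference was 3.54 ± 9.89 percentage points, higher in 2 of 4 libraries (exact sign-flip test, p = 0.875), and without young 2 it was -1.34. With TSSs of all annotated genes the differences were -2.63, -5.15, -0.510 and 17, higher in young 2 alone. Compared with the next 1000 peaks by width alone, where promoters made up 9.60%, 16.0%, 9.60% and 35.2%, the widest peaks were lower in 4 of 4 libraries, by 5.25 percentage points (exact p = 0.13). Between groups, the promoter share of the widest peaks had means of 8.05% ± 3.04 in old and 16.65% ± 13.8 in young (SD, n = 2). The difference of -8.6 percentage points gave p = 0.667 by the two-sided exact permutation test of 2 against 2 libraries.

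When peaks that were at least 50% soft-masked were left out before ranking, promoters made up 23%, 50.3%, 18.0% and 65.7% of the widest 1000, against 10.8%, 22.0%, 9.39% and 10.6% of the remaining unmasked peaks. The promoter share was then higher in 4 of 4 libraries, by 26.1 percentage points (exact p = 0.13). Among unmasked peaks the widest were thus at promoters more often than the others.

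**Figure D4:**
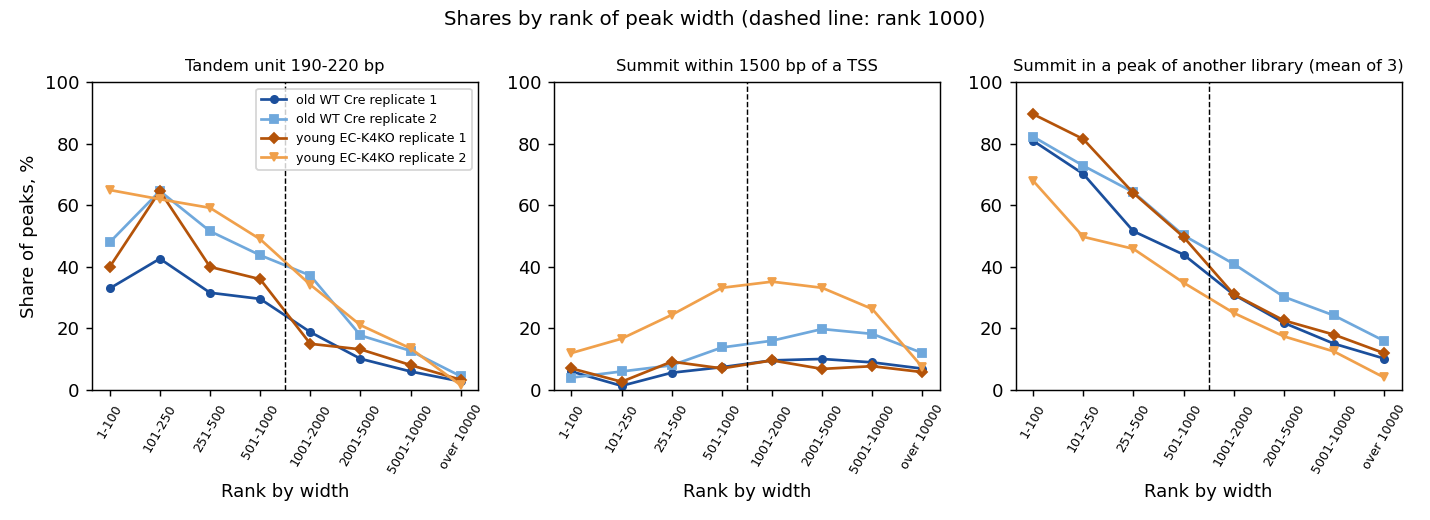
Share of peaks, in %, by rank of width in each library, for L1-like arrays with units of 190 to 220 bp, for summits within 1500 bp of a TSS, and for summits within a peak of another library as the mean over the 3 others. Sharing falls from 68.0% to 89.7% in the widest 100 to 4.04% to 15.9% beyond rank 10000, and promoters are less frequent among the widest 100 than in the 1000 that followed the widest in all 4 libraries.

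Gene bodies held fewer of the widest peaks. Summits lay within a protein-coding gene for 36.4%, 36.7%, 31.7% and 38.7% of the widest peaks and 47.6%, 49.1%, 39.0% and 47.2% of the remaining peaks. The share was lower in 4 of 4 libraries, by a difference of -9.86 ± 2.33 percentage points (exact p = 0.13, 0.148 adjusted). Without the peaks that were at least 50% soft-masked the difference was 4.29, in the other direction. Exons away from promoters held 1.40%, 0.900%, 1.6% and 1.40% of the widest peaks and 5.33%, 6.47%, 3.94% and 5.82% of the remaining peaks. The X chromosome, with 6.49% of the bases considered, held 3.60%, 4.6%, 3.10% and 7.20% of the widest peaks and 1.40%, 1.67%, 1.12% and 3.74% of the remaining peaks, a difference of 2.64 ± 0.681 percentage points, higher in 4 of 4 libraries (exact p = 0.13, 0.148 adjusted).

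The widest peaks recurred between libraries far more often than the others. On average over the other 3 libraries, 53.5%, 60.4%, 62.1% and 43.2% of the widest peaks had the summit within a peak of another library, against 11.2%, 18.8%, 14.3% and 4.49% of the remaining peaks. The difference was 42.6 ± 3.78 percentage points, higher in 4 of 4 libraries (exact p = 0.13, 0.148 adjusted). It was 22.8 against the next 1000 peaks by width and 15.4 when peaks at least 50% soft-masked were left out before ranking. A peak in each of the other 3 libraries was found for 31.7%, 32.8%, 41.6% and 21.6% of the widest and for 1.26%, 2.67%, 2.83% and 0.428% of the remaining peaks. The class moved with sharing. In young 2, 54.4% of L1-like members and 14.5% of promoter members were shared with another library on average, and in old 1 the values were 73.4% and 37.8%.

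Of the 6 pairs of libraries, the old replicates shared most of their widest peaks and the young replicates least. The 1000 widest peaks of the old replicates overlapped each other for 43.4%, averaged over both directions, and those of the young replicates for 27.0%. Between groups the overlap was 32.4%, 27.6%, 32.3% and 34.2%. Within groups the overlap was higher by 3.58 percentage points on average (p = 0.333 by exact permutation of the 3 possible pairings, one-sided, which is the smallest p), and the young pair overlapped less than any pair of an old and a young library. Without old 1 the difference was -6.28, and without old 2 it was -3.03.

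Merged where they overlapped, the 4000 members formed 2676 loci, of which 1867 (69.8%) were wide in 1 library, 454 in 2, 210 in 3 and 145 in 4 (5.42%). Of the 145 loci that were wide in all 4 libraries, 91 were L1-like arrays, 23 short tandem arrays, 10 other tandem arrays and 5 satellites, and 2 were promoters. Of the 454 loci wide in 2 libraries, 253 were wide in 1 old and 1 young library, 152 in both old libraries and 49 in both young libraries. Of the 152, 97 were short tandem arrays (63.8%), 25 L1-like (16.4%) and 2 promoters, whereas of the 49, 41 were L1-like (83.7%) and none a short tandem array. Of the 253 mixed pairs, 64.4% were L1-like and 10.7% short tandem arrays, and of all 2676 loci 38% and 16.0%. Some of these loci had a narrower peak where a wide one was missing. Of the 49 loci wide in the young libraries alone, 77.6% had some peak in old 1 and 83.7% in old 2, and of the 152 loci wide in the old libraries alone, 25.0% had some peak in young 1 and 41.4% in young 2.

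The widest locus of all lay on chromosome 17 from 39842997 to 39848828 (mm10), over CT010467.1, annotated as a ribosomal RNA gene, and the lincRNA Gm42418 on the other strand. Its peak was 5832, 3808, 2895 and 4207 bp wide in old 1, old 2, young 1 and young 2, the widest of each library. The pileup there was 2330, 1161, 1982 and 3132 fragments, or 35.4, 42.3, 56.3 and 138 per 1000000 fragments, and young 2 was the highest by this measure. Ribosomal RNA genes of this kind are normally read by Pol I and are present in many copies in the nucleus, most of them not placed in the assembly.

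Next in order of the smallest of their 4 widths came mostly tandem arrays. A locus on chromosome 17 from 13550666 to 13553187, within the lincRNA 2700054A10Rik, was 2521, 2513, 2516 and 2522 bp wide. The width of this locus was nearly the same in libraries that differ in depth and group. A locus on chromosome 15 from 91906638 to 91910410, at the mucin gene Muc19, was 3362, 3410, 2186 and 3715 bp wide and had 8 copies of its words in the assembly. The chromosome 13 array shown above, from 74528530 to 74530678, was 2098, 2098, 2134 and 2135 bp wide. The minisatellite in Stam2, a gene for an adaptor of endosomal sorting, was 2145, 2517, 1763 and 2244 bp wide and had a unit of 54 bp, which is seen 2 times in the sequence printed above. The TSS of Cacnb4, a calcium channel subunit, was the nearest to it, at 20626 bp.

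Other loci among the first 15 were a short tandem array on chromosome 9 at 124256294, 55932 bp from the nearest TSS, of 2010315B03Rik, and one 4222 bp from Tmem125 on chromosome 4, with widths of 1521, 1521, 1512 and 1514 bp. The satellite loci near Gm10722, Gm11168 and Gm10717 were 1789, 1779, 1519 and 1511 bp, 1378, 1375, 1366 and 1373 bp, and 1279, 1285, 1271 and 1283 bp wide. An array with a unit of 164 bp lay within Mepe, which encodes a bone matrix phosphoprotein. L1-like arrays within introns of Nav3, a microtubule-associated navigator, and Galntl6, a glycosyltransferase, were 1382, 1716, 1727 and 1784 bp and 1544, 1339, 1476 and 1360 bp wide, and another lay between genes on chromosome 10 at 46972547, 1395243 bp from the nearest TSS, of Hace1. The locus on chromosome 4 from 3081718 to 3084499, 85459 bp from Vmn1r2, was 2698, 1325, 1493 and 2782 bp wide.

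The 10 widest peaks of each library added few genes to these. L1-like arrays were found nearest to Nup35, a nucleoporin, with widths of 2380, 2316 and 2053 bp in old 1 and both young libraries, nearest to Cntn1 with 1803 bp in old 1, nearest to Impg1 with 2495 bp in young 2, and in Pde1c with 1786 bp in old 2 and 2164 bp in young 2. Tandem arrays lay nearest to Cyp8b1, a bile acid enzyme of liver, with 2406 and 2301 bp in the old libraries, and nearest to Kcnj5 with 1896 bp in old 2. The others were nearest to Adamts16 in old 1, to Vmn1r238 in old 2 with 1752 bp, to Gpm6a in young 1 and to Stk38l in young 2. None of these genes had the summit within 1500 bp of its TSS. A peak within Sfi1, single-copy by its words in the assembly alone, was 1789 bp wide in young 1, at 3637 bp from its TSS. Its pileup was 297 fragments, where the median of the widest single-copy peaks of young 1 was 15.

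Promoters with a wide peak were counted over 21644 protein-coding genes. The summit of a widest peak lay within 1500 bp of a TSS for 64 genes (0.296%) in old 1, 118 (0.545%) in old 2, 74 (0.342%) in young 1 and 320 (1.48%) in young 2. A peak of any width was present for 25.0%, 24.3%, 10.5% and 67.2% of genes. Over the 4 libraries 512 genes (2.37%) had a widest peak, of which 471 in 1 library, 25 in 2, 9 in 3 and 7 in 4, and 294 in young 2 alone.

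The shape of promoter peaks was measured in the promoter class alone, outside the tandem and soft-masked classes, with 45, 88, 52 and 256 widest peaks. The widest peaks of this class mostly covered the TSS on both sides. They covered it in 55.6%, 79.5%, 61.5% and 84.8% of cases, against 20.8%, 25.2%, 27.5% and 32.5% of the remaining promoter peaks, as wider intervals would. Those that covered it reached a median of 302, 331, 298 and 436 bp upstream and 474, 439, 332 and 623 bp downstream, so that the downstream arm was the longer in each library. Over all widest peaks of this class, the summit lay downstream of the TSS for 62.2%, 70.5%, 53.8% and 62.1%, beside 69.7%, 73.0%, 61.0% and 65.5% of its remaining peaks. CpG-rich sequence was frequent, with a CpG ratio of at least 0.6 in 80%, 89.8%, 73.1% and 95.3% of the widest and 57.5%, 73.1%, 52.0% and 57.1% of the remaining promoter peaks. Promoters that lie between 2 genes transcribed away from each other made up 11.1%, 11.4%, 15.4% and 17.6% of the widest and 6.72%, 8.25%, 8.19% and 6.01% of the remaining promoter peaks, higher in 4 of 4 libraries by 6.57 ± 3.75 percentage points (SD, n = 4).

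**Figure D5:**
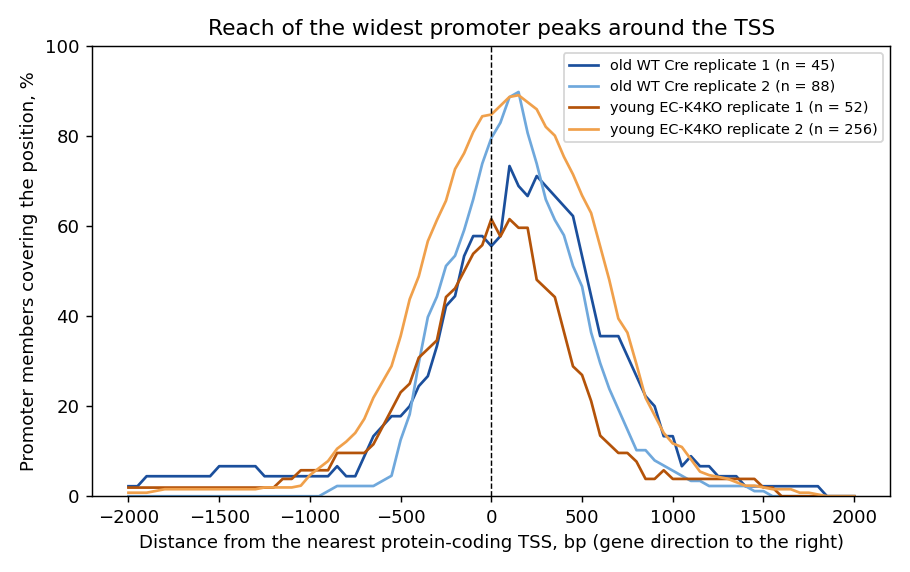
Share of the widest promoter peaks, in %, that cover each position from 2000 bp before to 2000 bp after the nearest protein-coding TSS. Genes are read to the right. The 45, 88, 52 and 256 peaks are those outside the tandem and soft-masked classes. Coverage is highest at or just downstream of the TSS in each library and falls more slowly on the downstream side in both old libraries and in young 2.

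The promoters of Ctps and Slain2 are shown because these single-copy promoters were among the widest peaks in 3 libraries. Ctps encodes CTP synthase, which makes the nucleotide CTP, and Slain2 encodes a protein of growing microtubule ends. Each run ends at the start annotated by RefSeq or GENCODE, whichever comes first, with CpG in capitals. That of Slain2 lies within Gm9870, an unclassified transcript on the other strand.
Ctps, chr4:120570277-120570526, minus strand: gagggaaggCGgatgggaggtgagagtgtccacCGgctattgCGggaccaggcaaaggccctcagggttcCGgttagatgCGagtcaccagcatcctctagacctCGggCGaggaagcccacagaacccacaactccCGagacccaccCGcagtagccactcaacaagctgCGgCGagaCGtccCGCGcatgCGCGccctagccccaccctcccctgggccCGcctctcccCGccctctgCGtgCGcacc
Slain2, chr5:72914112-72914303, plus strand: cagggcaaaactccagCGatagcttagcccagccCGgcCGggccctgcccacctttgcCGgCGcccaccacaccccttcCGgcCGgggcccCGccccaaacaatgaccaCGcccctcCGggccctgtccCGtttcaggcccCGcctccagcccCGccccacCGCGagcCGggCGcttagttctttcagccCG
The widest peak at Ctps was 668, 499 and 1307 bp long in old 2 and young 1 and young 2, and old 1 had no peak there. That at Slain2 was 874, 571 and 910 bp long in the same 3 libraries, and old 1 again had none. The runs hold 20 and 18 CpG, with GC contents of 67.6% and 72.9%.

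Of the 7 genes with a widest peak at the promoter in all 4 libraries, 6 lie in repeated sequence: the predicted genes Gm10722, Gm10717, Gm10718 and Gm17535 in the chromosome 9 satellite, and the neighbouring genes AW822073 and Duxf3, the latter a double homeobox gene, on chromosome 10. AW822073 had widths of 1589, 1123, 1275 and 1892 bp, and Duxf3 had 1090, 1069, 1011 and 1086 bp. The seventh was Sfi1, which encodes a centrin-binding protein of the centrosome, with 926, 708, 918 and 994 bp at its promoter. Of the 9 genes in 3 libraries, Gm10721, Gm10800 and Gm10719 are predicted genes in repeated sequence, where young 2 had peaks of 775, 783 and 750 bp, below its lower bound, and the others are Ctps, Slain2 and 2 pairs that share a promoter. Slc30a7, a zinc transporter, and Extl2, a glycosyltransferase, shared a peak of 816, 662 and 1468 bp in both old libraries and young 2, with no peak in young 1. Tmem267 and 3110070M22Rik shared a peak of 915, 1352 and 505 bp in the first 3 libraries, where young 2 had a narrower one of 366 bp.

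Few promoters were wide in both libraries of 1 group alone. Those wide in the old libraries alone were at Ifi44l, an interferon-induced gene, with 725 and 693 bp and 181 bp in young 2, at the shared promoter of Cog5, a Golgi complex subunit, and Dus4l, a tRNA-modifying enzyme, with 683 and 664 bp and 248 bp in young 2, and at Zfp984, with 695 and 648 bp beside 371 and 397 bp in the young libraries. Those wide in the young libraries alone were at the shared promoter of Glyr1 and Ubn1, both chromatin-associated, with 744 and 924 bp beside 173 bp in old 2, at Ifrd1, with 510 and 925 bp beside 623 and 200 bp in the old libraries, and at Ppp1r15b, a subunit of the phosphatase that acts on the translation factor eIF2α, with 503 and 1051 bp beside 317 bp in old 1. With 4 genes in each direction out of 21644, and a lower bound that differed between libraries, these are given as values. Ifrd1 had a wider peak in old 1 than in young 1.

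Of 243 protein-coding genes on 18 lists of brain cell markers and vascular, stress, senescence, adhesion and housekeeping functions, 15 (6.17%) had a widest peak at the promoter in some library, beside 2.37% of all protein-coding genes, and none had one in 2 libraries. None of the 12 endothelial markers had one, nor any marker of pericytes, microglia, neurons, astrocytes, oligodendrocytes or blood. A peak of any width was present at 3, 3, 0 and 6 of the 12 endothelial markers, beside the 25.0%, 24.3%, 10.5% and 67.2% of all genes given above. It was present at 3, 1, 0 and 5 of 6 microglial, 3, 0, 2 and 5 of 7 pericyte and mural, and 0, 1, 0 and 4 of 6 neuronal markers. For oligodendrocytes it was 0, 1, 1 and 5 of 6, for astrocytes 1, 0, 1 and 3 of 5, and for blood 0, 0, 1 and 3 of 4. With so few genes in each list, promoter peaks do not check the labelled cell type. Klf4, the targeted gene, had no widest peak. It had a peak of 167 bp in young 1 and of 549 bp in young 2, and none in the old libraries.

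The 15 genes are named because they are few, after their values were seen. In young 2 they were the chaperone genes Hsp90aa1 (1151 bp) and Hspd1 with Hspe1 (a shared peak of 1170 bp), the cell cycle inhibitor Cdkn1b (1117 bp), the Notch ligand Jag1 (952 bp), and the actin and adhesion genes Actn1 (1580 bp), Cfl1 (902 bp) and Itgb1 (1045 bp). In young 1 they were the transcription factor Ets1 (519 bp), the semaphorin and VEGF coreceptor Nrp1 (544 bp), the translation factor Eif4a2 (713 bp) and the ubiquitin gene Ubb (512 bp). In old 2 they were the drug efflux transporter Abcb1a (615 bp) and the integrins Itga5 (608 bp) and Itga6 (645 bp), and none was found in old 1. Ets1 showed how the lower bound bears on such counts: its peak was 465, 471, 519 and 590 bp wide in the 4 libraries, and counted in young 1 alone.

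Families of many genes are given beside the 2.37% of all protein-coding genes that had a widest promoter peak, with no test. Of 1133 olfactory receptor genes 2 had a widest promoter peak in some library, where 75, 30, 64 and 272 had a promoter peak of any width in old 1, old 2, young 1 and young 2. Of 330 vomeronasal receptor genes none had a widest promoter peak and 14, 5, 16 and 44 had one of any width. The others were 12 of 394 genes named Zfp (3.05%), 3 of 79 cytosolic ribosomal protein genes (3.80%) and 5 of 67 replication histone genes (7.46%). These families were chosen with the values known.

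For the widest peaks of the promoter class, outside the tandem and soft-masked classes, promoter sequences of the nearest gene were taken from RefSeq (build GRCm38.p6). These ran from 250 bases before to 50 after the start, and matched 32 of 45, 60 of 88, 36 of 52 and 216 of 256 genes by symbol. The GC box GGGCGG, searched on both strands, was found in 68.8%, 70%, 80.6% and 73.1% of them, against 36.2% of all 26794 promoters of the same length. The TATA box TATAAA was found in 9.38%, 3.33%, 2.78% and 3.70%, against 14.2% of all. The Ets site CCGGAAGT was found in 6.25%, 6.67%, 11.1% and 6.02%, against 4.03%, and the KLF-type core CACCC in 59.4%, 68.3%, 69.4% and 59.7%, against 56.9%. These matches describe the letters alone, and the wide promoters were also those rich in CpG. The shares were set against all promoters, with or without a peak, and not against narrower promoter peaks, so a link to width was not tested.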

How the data were processed

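RNA polymerase II chromatin immunoprecipitation was measured in 4 libraries, 2 per group, and replicate numbers only name a library. The study's methods call them biological replicates, and the labels do not say which animals each came from, so tests measure the spread between these libraries. Per the study's methods, reads were trimmed and aligned to mm10 with Bowtie2 in local mode and duplicates were removed, and a mapping-quality filter is stated there for ATAC-seq but not for these libraries. Where a read fits many repeat copies, its placement is not known. Per the file headers, the authors called peaks in each library alone with MACS 2.2.7.1 from paired-end fragments at q 0.01 without a control library. The deposited lists give each peak's position and length, the pileup signal over its summit, the −log10 p and q values and the fold enrichment. The length chose the members.

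With Python 3.11.15, numpy 2.4.6, pandas 2.3.3 and scipy 1.17.1, peaks on chromosomes 1 to 19 and X were ranked by length, and each summit was placed against GENCODE M21 genes and the soft-masked GRCm38 sequence. Tandem units were sought in 600 bp around the summit as the shift of up to 300 bp at which at least 80% of bases matched, and open stretches within 8000 bp. Libraries were the replicates: differences between widest and remaining peaks used a two-sided exact sign-flip test. Overlap within against between groups, and promoter share between groups, used exact permutation tests. A planned group test of median width is not given, since width chose the members. Intervals are Clopper-Pearson 95% and cover counting error only. Fragments per library ranged from 22705175 to 65734178. On simulated data 200 of 200 planted arrays and 0 of 1000 random windows were called tandem. Members, lists and classes were chosen with earlier results of these data known. The named genes are those nearest to the 10 widest peaks of a library, those of the first 15 loci wide in all 4 libraries, promoters wide in 3 or 4 libraries or in both libraries of 1 group alone, and listed genes wide in at least 2 libraries, of which there were none. The 15 listed genes wide in 1 library were named outside this rule, after their values were seen. The alternatives varied the number of peaks, q, masking, chromosomes, overlap and libraries. Peaks on other chromosomes and contigs were left out of the ranking.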

Additional observations from a re-analysis of the deposited data

Results flagged for a closer look

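The promoter share of the widest peaks minus that of the remaining peaks differed in direction between the groups. It was -1.31 percentage points in old 1 and -3.32 in old 2, but 0.618 in young 1 and 18.2 in young 2. The direction in young 1 depended on which genes were counted, and this difference between groups was not tested. Counted over every annotated gene, coding or not, the differences were -2.63, -5.15, -0.510 and 17, so that young 1 went with the old libraries and young 2 stood alone. Young 2 also held the most peaks and the highest lower bound of width.

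Peaks outside chromosomes 1 to 19 and X, which the ranking left out, were also wide. There were 49, 44, 72 and 12 of them at least as wide as the 1000th widest peak of old 1, old 2, young 1 and young 2. Of these, 41, 33, 62 and 9 lay on contigs that are not placed on a chromosome, and the widest was 2101, 2087, 2030 and 2029 bp long.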

How the results depend on the processing

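Of 128 alternatives over 12 results, 113 kept the direction, or a count within 1.5 times. No test here could pass 0.05, so the alternatives bear on direction and size alone. Against the next 1000 peaks by width the promoter difference was -5.25 percentage points, and leaving out 1 library it ranged from -1.34 (without young 2) to 5.83. Leaving out peaks at least 50% soft-masked before ranking turned the gene-body difference to 4.29, the masked-share difference to -0.0659, which that choice itself removes, and the overlap difference within against between groups to -1.19, and left 35 loci wide in all 4 libraries. The overlap difference ranged from -6.28 (without old 1) to 12.5, with -3.03 without old 2. The loci wide in every library numbered 75 for the widest 500 and 176 to 231 (without young 2) over the sets of 3 libraries. The median width difference was 60.5 bp for the widest 1% of each list and -272 to 173 bp leaving out 1 library, and the promoter share difference between groups was -18.4 to 1.15, both turning without young 2. Listed genes with a wide promoter peak numbered 29 for the widest 2000 and 7 (without young 2) to 15. The alternatives for L1-like arrays and 2-base microsatellites were chosen after seeing the data and kept their direction. The causes of these changes were not tested. No paired analysis was possible because replicate numbers merely name libraries and no model was fitted.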
